A study of Homo sapiens with 8 samples.

Results

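The LSD1 regions on chromosomes 4, 5 and 8 of the human breast cancer line MDA-MB-231 were described here in parental cells and in cells lacking RCOR2. These chromosomes were chosen by measured values, because both RCOR2-KO1 libraries had an excess of regions there that no parental library had, so the values that chose them are given as a description and with no test. Peak summits of all libraries were joined into a region as long as the gap to the next summit did not exceed 500 bp. There were 10566 such regions on the 3 chromosomes of 68148 on chromosomes 1 to 22 and X, with 3369 on chromosome 4, 4085 on chromosome 5 and 3112 on chromosome 8. The remaining 19 autosomes held 55733 regions and served for comparison.

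LSD1 is a histone demethylase that removes methyl groups from lysine 4 of histone H3, a mark of active promoters and enhancers. It works inside CoREST complexes with the deacetylases HDAC1 and HDAC2, and RCOR2 is a scaffold protein of such a complex, related to RCOR1. In CUT&RUN, an antibody guides a fusion of protein A/G and micrococcal nuclease to its target in permeabilized cells, and the fragments cut out around the target are sequenced.

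LSD1 CUT&RUN was done on parental cells and on RCOR2-KO1 cells, which were made from the same line with CRISPR/Cas9 and a guide RNA against RCOR2, with 2 libraries of each genotype. No treatment other than the knockout is given in the labels for either group, and for knockout lines the study's methods speak of picking single cells and of pooling several clones, without stating whether the MDA-MB-231 line, for which they point to earlier work, was made so. Peaks were called by the authors library by library, with IgG libraries as background, of which there were 4 and which were not analysed here, and they deposited the summit of each peak with the −log10 of its p or q value. The parental lists held 47354 and 54467 summits and the KO1 lists 49586 and 50119, and the read depth behind them is unknown. Summit lists hold no transcript level, so loss of RCOR2 could not be checked in them. With 2 libraries against 2, the smallest exact permutation p that a two-sided test allows is 0.333.

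Chromosomes 4, 5 and 8 together took up a larger part of both KO1 lists than of both parental lists. They held 15.1% of the summits in each parental library, against 15.8% in KO1 replicate 1 and 15.9% in KO1 replicate 2. Chromosome 4 held 4.70% and 4.81% of the parental lists and 5.05% and 5.05% of the KO1 lists. On chromosome 5 these shares were 5.95% and 5.87% in parental and 6.10% and 6.16% in KO1 libraries. On chromosome 8 they were 4.45% and 4.44% in parental and 4.65% and 4.71% in KO1 libraries. The genotypes did not overlap on any of the 3 chromosomes, and the KO1 mean was 1.06, 1.04 and 1.05 times the parental mean on chromosomes 4, 5 and 8. Of the other 19 autosomes, 4 had both KO1 shares above both parental shares, 9 had both below, and 6 had overlapping shares.

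**Figure D1:**
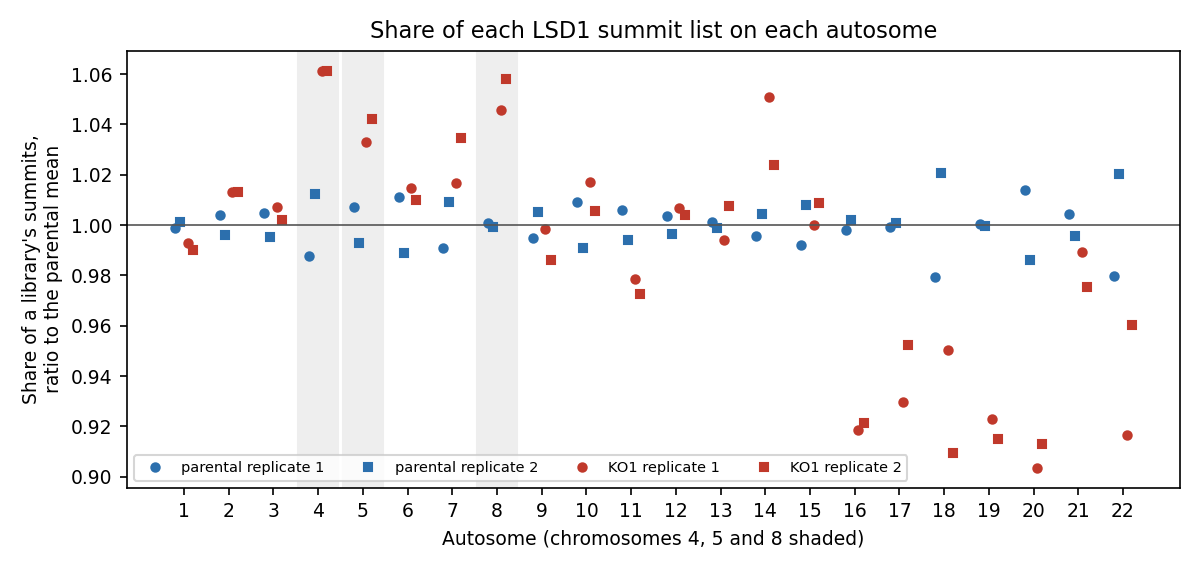
Share of each library's LSD1 summits on each autosome, divided by the mean share of the 2 parental libraries (y axis, ratio; each point is 1 library, blue parental and red KO1, circles replicate 1 and squares replicate 2; chromosomes 4, 5 and 8 shaded). On chromosomes 4, 5 and 8 the red points lie above the blue ones, with mean ratios of 1.06, 1.04 and 1.05.

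More regions were seen in both KO1 libraries and no parental library (KO1-only) than the reverse (parental-only) on each of the 3 chromosomes. There were 5497 regions in all 4 lists, 495 KO1-only regions and 371 parental-only regions, whereas the other autosomes had 29401, 1878 and 2476. The KO1-only share, which is the number of KO1-only regions divided by that number plus the regions in all 4 lists, was 8.26% on chromosomes 4, 5 and 8 (95% Clopper-Pearson interval 7.58 to 8.99) and 6.0% on the other autosomes. The parental-only share, defined likewise, was 6.32% (5.71 to 6.98) against 7.77%. These intervals cover counting error only, since regions of a library are not replicates of a genotype. KO1-only regions thus numbered 1.33 for each parental-only region on chromosomes 4, 5 and 8 and 0.758 on the other autosomes.

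Chromosome 8 had the highest KO1-only share of the 22 autosomes, 8.64% with 152 regions, and chromosome 4 followed with 8.31% and 155 regions. Chromosome 21, which was not chosen, followed with 8.0%, then chromosome 5 with 7.94% and 188 regions, and then chromosome 13 with 7.79%. The intervals of these 5 chromosomes overlapped, so their order is not resolved by counting error. Chromosome X, left out of the comparison of autosomes, had 9.07% (7.40 to 11.0) with 96 regions. Its parental-only share was 4.08% with 41 regions, lower than on each of the 3 chromosomes. Chromosomes 13 and 21 had higher parental-only shares than the 3 chromosomes. This share was 5.94% on chromosome 4 with 108 regions, 6.36% on chromosome 5 with 148 and 6.68% on chromosome 8 with 115, as compared with 8.88% on chromosome 13 and 10.5% on chromosome 21. Only chromosomes 6 and 7 among the other 19 autosomes had more KO1-only than parental-only regions.

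Sparse autosomes in general had high KO1-only shares. Chromosome 4 had 18 LSD1 regions per Mb, the fewest of the autosomes, whereas chromosomes 5 and 8 had 23.1 and 21.8 and the other autosomes ranged from 19.2 on chromosome 18 to 45 on chromosome 19. Across the 19 other autosomes, which share the same 4 libraries, the KO1-only share had a Pearson's r of -0.929 and a Spearman's rho of -0.823 with the regions per Mb. The parental-only share had -0.0237 and 0.0263. A straight line through those 19 autosomes had to be extended below their lowest density to reach chromosome 4, where it gave a KO1-only share of 7.62%. Chromosome 4 lay 0.691 percentage points above it, within the -0.860 to 0.807 that the 19 autosomes themselves spanned around the line. Chromosome 18, the sparsest of the 19, was an exception with a share of 6.54% and lay farthest below the line. Chromosome 5 lay 1.26 points above the line and chromosome 8 lay 1.72 points above it, farther than any of the 19. The part of region density in the shares was not tested, and the number of regions in all 4 lists enters both measures.

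**Figure D2:**
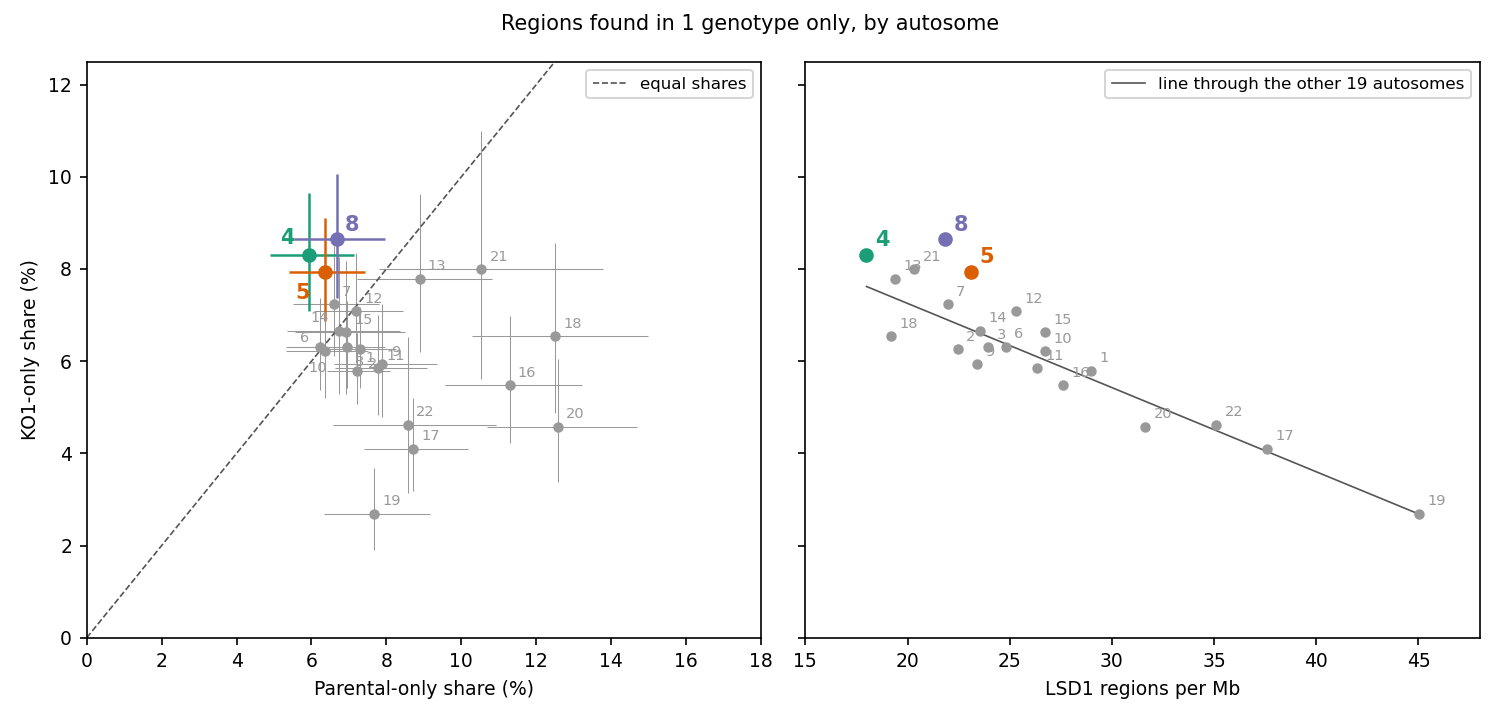
KO1-only share of each autosome (y axis, percent) against its parental-only share (left, percent) and against its LSD1 regions per Mb (right); points are autosomes, bars on the left are 95% Clopper-Pearson intervals, and the line on the right runs through the other 19 autosomes. Chromosomes 4, 5 and 8 lie above the line of equal shares on the left, and chromosomes 5 and 8 lie 1.26 and 1.72 points above the line on the right.

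The shares were also set out by the number of regions in a bin. Among 10-Mb bins with at least 30 regions in all 4 lists, the 23 bins of chromosomes 4, 5 and 8 with up to 189 regions had a KO1-only share of 9.71% (8.41 to 11.1), against 7.0% (6.30 to 7.76) in the 68 such bins of the other autosomes. In the 18 bins with up to 274 regions the share was 8.36% (7.25 to 9.58), against 6.56% (6.07 to 7.07). In the 9 bins with more regions it was 6.22% (5.14 to 7.45), against 5.34% (5.00 to 5.69). These are ratios of 1.39, 1.28 and 1.16, and in the bins with the most regions the intervals overlapped. There, the 2 bins of chromosome 8 had 5.24%, slightly below the other autosomes.

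Values for single pairs of libraries describe the same excess that chose the chromosomes, since each KO1-only region counts in every pair. Of the regions of KO1 replicate 1 on chromosomes 4, 5 and 8, 22.3% had no summit in parental replicate 1 and 17.1% had none in parental replicate 2. For KO1 replicate 2 these shares were 23.5% and 17.5%. On the other autosomes the same 4 shares were 19.8%, 14.7%, 19.7% and 14.7%, lower in each pair by 2.43 to 3.73 percentage points. In the reverse direction, 14.9%, 14.7%, 21.2% and 20.2% of the parental regions were missing from a KO1 list, 1.57 to 2.32 points fewer than on the other autosomes.

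The KO1-only regions were not spread evenly over the arms, which were parted at the longest stretch free of summits, 3.74 Mb on chromosome 4, 4.02 Mb on chromosome 5 and 3.68 Mb on chromosome 8. The short arm of chromosome 5 (5p) had the highest KO1-only share of the 37 autosomal arms compared, which leave out chromosome 2, 11.6% (8.79 to 14.9), with 53 KO1-only and 23 parental-only regions, and also the lowest parental-only share of these arms, 5.37% (3.44 to 7.95). The long arm of chromosome 8 (8q) came next with 9.91% (8.24 to 11.8), from 113 KO1-only and 72 parental-only regions. The short arm of chromosome 7, which was not chosen, ranked 3 with 8.84% (7.03 to 10.9), from 76 KO1-only and 46 parental-only regions. On chromosome 4 the arms were alike, with 8.07% (5.97 to 10.6) on 4p and 8.42% (6.96 to 10.1) on 4q. In contrast, 5q had 7.07% (5.96 to 8.31), with 135 KO1-only and 125 parental-only regions. The short arm of chromosome 8 had 6.30% (4.52 to 8.51), close to the 6.0% of the other autosomes, and held more parental-only than KO1-only regions, 43 against 39.

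Along the chromosomes, KO1-only regions outnumbered parental-only regions in 35 of the 50 bins of chromosomes 4, 5 and 8 with enough regions (70.0%) and in 84 of 224 bins of the other autosomes (37.5%). Of the 20 bins with the highest KO1-only share among all 274, 9 lay on these 3 chromosomes. The highest share of all, 29.5%, was on chromosome 3, in the bin that starts at 80 Mb. On chromosome 8, the bin from 70 to 80 Mb had 9 KO1-only and 2 parental-only regions, a KO1-only share of 21.4% (10.3 to 36.8), and the bin from 50 to 60 Mb had 19 and 2, a share of 21.3% (13.4 to 31.3). On chromosome 5, the bin from 60 to 70 Mb had 19 KO1-only and 3 parental-only regions (18.1%, 11.3 to 26.8), and on chromosome 4 the bin from 60 to 70 Mb had 9 and 2 (16.7%, 7.92 to 29.3). From 50 to 90 Mb of chromosome 8, the 4 bins had KO1-only shares of 21.3%, 12.2%, 21.4% and 11.3% and no more than 3 parental-only regions each.

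Other bins, several of them at chromosome ends, went the other way. The last well-covered bin of chromosome 5, from 170 to 180 Mb, had 6 KO1-only and 28 parental-only regions, a parental-only share of 15.5% (10.5 to 21.6), and the first bin of chromosome 4 had 10 and 19. The first bin of chromosome 8 had 1 KO1-only and 7 parental-only regions and the last, from 140 to 150 Mb, had 3 and 13. Within 8p, the bin from 20 to 30 Mb had 6 and 18.

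**Figure D3:**
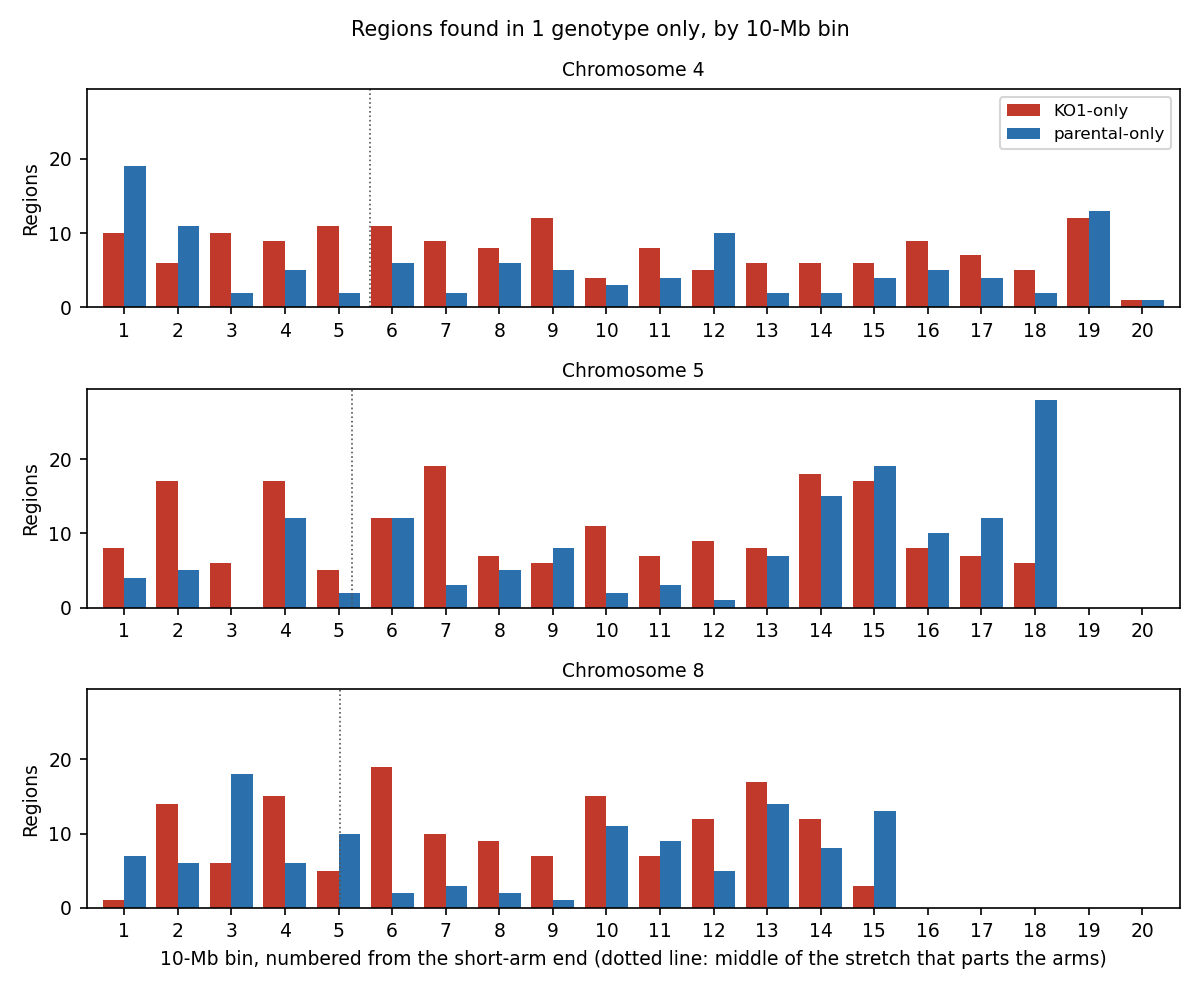
Number of KO1-only (red) and parental-only (blue) regions in each 10-Mb bin of chromosomes 4, 5 and 8 (y axis, regions; x axis, bins numbered from the short-arm end, dotted line at the middle of the summit-free stretch that parts the arms). Red bars exceed blue ones in 35 of the 50 bins compared, with 19 against 2 in bin 6 of chromosome 8 and 19 against 3 in bin 7 of chromosome 5, while blue bars exceed red ones in bin 18 of chromosome 5 (28 against 6) and in the outermost bins of chromosome 8.

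KO1-only regions were weak. To compare libraries, each summit was given its percentile within its own list by the −log10 value, where 100 is the strongest. The median KO1-only region of chromosomes 4, 5 and 8 had a percentile of 20.3 in KO1 replicate 1 and 21.7 in KO1 replicate 2, whereas the regions in all 4 lists had medians of 62.0 and 61.7 there. Of the 495, 33 (6.67%, 4.63 to 9.24) were at or above the middle of both KO1 lists, as compared with 205 of 1878 (10.9%, 9.54 to 12.4) on the other autosomes. The parental-only regions were weak too, with medians of 18.1 and 24.0 in parental replicates 1 and 2.

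By strength, the higher shares lay among the regions that ranked low in a KO1 list. Regions in both KO1 lists were sorted by the lower of their 2 KO1 percentiles. At percentiles up to 25, 20.7% (18.8 to 22.6) of those on chromosomes 4, 5 and 8 were KO1-only, against 15.2% (14.5 to 16.0) on the other autosomes. From 25 to 50 it was 5.39% (4.37 to 6.57) against 3.89% (3.50 to 4.31). From 50 to 75 it was 1.15% against 1.34%, and above 75 it was 0.871% against 1.05%, with overlapping intervals. Among regions in the upper part of both KO1 lists, the share absent from the whole of both parental lists was thus no higher than on the other autosomes. These shares rested on few KO1-only regions of the 3 chromosomes, 20 and 13, and the difference was not tested. When all 4 lists were cut to their upper 50% instead, so that a parental summit below the middle no longer counted, the KO1-only share was 10.2% (9.13 to 11.4) against 7.58% (7.16 to 8.02), a ratio of 1.35.

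**Figure D4:**
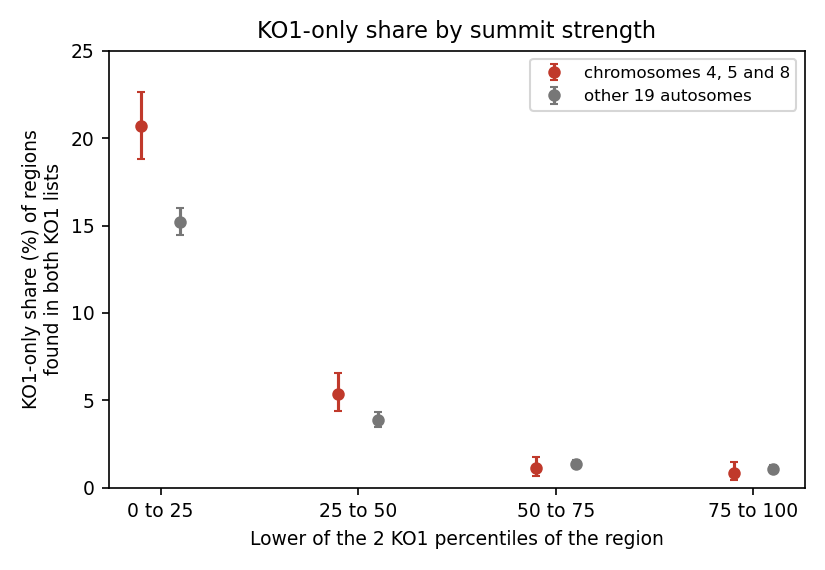
Share of the regions found in both KO1 lists that were in no parental list (y axis, percent) by the lower of their 2 KO1 percentiles (x axis), on chromosomes 4, 5 and 8 (red) and the other 19 autosomes (grey); bars are 95% Clopper-Pearson intervals. Red lies above grey below a percentile of 50, with 20.7% against 15.2% in the weakest group, and the intervals overlap above it.

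Most of the strong KO1-only regions lay close to a parental summit that the joining distance had left apart. Of the 33, 24 had a parental summit within 2 kb and 14 within 1 kb, as compared with 55 and 30 of the 462 weaker ones. The strong KO1-only regions of the other autosomes were alike in this, with 134 of 205 within 2 kb (65.4%, against 72.7%) and 89 within 1 kb (43.4%, against 42.4%). The strongest KO1-only region of the 3 chromosomes, on chromosome 5 from 1327804 to 1327901 (GRCh37, as all positions here), had percentiles of 99.8 and 99.9 in the KO1 libraries. The strongest parental-only region, from 1327210 to 1327263 of the same chromosome, had 99.9 and 99.98 in the parental libraries and ended 541 bp before it. Each genotype thus had a summit near the top of both of its lists there, at positions 541 bp apart. The next strongest on chromosome 5, from 52715417 to 52715440 with percentiles of 94.1 and 97.5 and from 149868829 to 149868830 with 90.0 and 95.2, lay 511 and 515 bp from a parental summit. On chromosome 4, the KO1-only regions from 54943687 to 54943700 (90.2 and 86.8) and from 188523594 to 188523655 (82.1 and 89.1) lay 568 and 563 bp from one, and the latter faced the strongest parental-only region of that chromosome, from 188524218 to 188524243 (78.6 and 79.4). The next on chromosome 4, from 170190357 to 170190370 (74.1 and 89.1), lay 1907 bp from a parental summit. For chromosome 8, the region from 134387905 to 134387947 (84.0 and 87.6) lay 553 bp from a parental summit, that from 30092807 to 30092824 (86.3 and 69.2) 649 bp, and that from 123141555 to 123141639 (92.0 and 85.9) 1565 bp.

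The surplus was also present when such neighbours were left out. Pairs of a KO1-only and a parental-only region within 1 kb of each other accounted for 24 of the 495 KO1-only regions (4.85%) and for 153 of 1878 on the other autosomes (8.15%). When only KO1-only regions with no parental summit within 2 kb were counted, 416 remained on chromosomes 4, 5 and 8, and their share was 7.04% (6.40 to 7.72) against 4.70% (4.47 to 4.95), a ratio of 1.5. With none within 10 kb, 262 remained and the share was 4.55% (4.03 to 5.12) against 2.76% (2.58 to 2.96), a ratio of 1.65. The ratio with all KO1-only regions was 1.38. The parental-only ratio rose under the same limits too, from 0.814 to 0.823 at 2 kb and 0.884 at 10 kb. Distance to a summit also depends on how densely summits lie, and the part of density in these ratios was not tested.

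The KO1-only region with the highest percentiles that stood more than 10 kb from any parental summit lay on chromosome 5 from 12245739 to 12245749, in 5p. Its percentiles were 78.0 in KO1 replicate 1 and 82.4 in KO1 replicate 2, and the nearest parental summit was 1109 kb away. It was part of a stretch of 2.44 Mb, between 10914350 and 13354913, in which neither parental list had a summit. The KO1 lists had 12 regions in that stretch, 8 of them in KO1 replicate 1 and 10 in KO1 replicate 2. The 6 found in both had KO1 percentiles of 11.5 and 21.4 at 11390626, 25.6 and 15.2 at 11453149, 34.3 and 9.89 at 11617167, 38.3 and 49.2 at 12243361, 78.0 and 82.4 at 12245739, and 42.3 and 21.7 at 13351059. All but 1 were thus in the weaker part of both lists. Among the stretches between neighbouring parental summits on all autosomes, only 1 on chromosome 1 held more KO1-only regions, 8.

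Parental summits flanked the stretch on both sides. Its left edge was a region from 10913865 to 10914350 found in all 4 lists, with parental percentiles of 42.5 and 54.7 and KO1 percentiles of 56.7 and 69.8. Its right edge lay in a region from 13354908 to 13354945, which was in parental replicate 2 at a percentile of 5.81 and in the KO1 libraries at 2.85 and 65.4, and the next region in all 4 lists, from 13567521 to 13567803, had 78.4 and 89.3 in parental and 99.4 and 96.5 in KO1 libraries. A longer stretch on chromosome 5 between 159907043 and 162806757, of 2.90 Mb, was empty in the parental lists and also in the KO1 lists.

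Stretches of the opposite kind, between neighbouring KO1 summits and with parental-only regions inside, were also found. On the 3 chromosomes, 442 stretches between parental summits held at least 1 KO1-only region and 43 held at least 2, whereas 326 and 30 stretches between KO1 summits held parental-only regions. On the other autosomes these counts were 1745 and 111 for KO1-only regions and 2210 and 176 for parental-only regions. Stretches with at least 3 such regions were 6 of the 442 for KO1-only and 6 of the 326 for parental-only regions. The other autosomes had 12 of 1745 and 33 of 2210. The parental-only stretches with the most regions were neighbours on chromosome 5, with 5 regions between 174151611 and 174673564 and 7 between 174673689 and 175017495. They lie in the bin with 28 parental-only regions. Chromosome 4 had a parental-only stretch with 5 regions between 16255395 and 17029298, and chromosome 8 one with 4 between 436806 and 631134.

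KO1-only regions also came in runs. Of the 495, 53 (10.7%) lay in 17 runs of at least 3 in which neighbours were within 100 kb, as compared with 145 of 1878 (7.72%) on the other autosomes. Chromosome 8 had 8 of these runs with 24 of its 152 KO1-only regions (15.8%), chromosome 5 had 6 with 20 (10.6%) and chromosome 4 had 3 with 9 (5.81%). Chromosomes 3 and 13 had 15.6% and 15.4% of theirs in runs, close to chromosome 8, and runs were not set against the number of KO1-only regions per Mb. The run with the most regions, 5, was on chromosome 5 from 9173911 to 9348594, with KO1 percentiles from 8.36 to 45.6, 1 region of all 4 lists and no parental-only region inside. Of those on chromosome 8, the runs from 56441080 to 56507469 and from 57133190 to 57233162 held 3 KO1-only regions each and no region of all 4 lists, and both lie in the bin from 50 to 60 Mb. A run of 3 on chromosome 4 from 89665018 to 89700744 held the KO1-only regions of that chromosome with the highest percentiles among those more than 10 kb from a parental summit, 53.7 and 56.2 at 89665018 and 51.8 and 50.5 at 89700704.

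For the regions found in all 4 lists, the difference in rank between KO1 and parental cells was slightly higher on these chromosomes than on the other autosomes pooled. Parental replicate 2 had the longest list, and its regions ranked a median of 3.67 percentile points above those of parental replicate 1 on chromosomes 4, 5 and 8 and 3.79 points on the other autosomes. The sign of KO1 minus parental therefore depended on which parental library was used, and the values are set beside those of the other autosomes. On the 3 chromosomes, KO1 replicate 1 was 2.24 points above parental replicate 1 and gave a median difference of -1.26 with parental replicate 2, and KO1 replicate 2 gave 2.26 and -0.965. The same 4 medians on the other autosomes were 0.829, -2.47, 0.967 and -2.56. The 3 chromosomes were higher in each pair, by 1.41, 1.21, 1.29 and 1.59 points, whereas the 2 pairs within a genotype differed by -0.123 and -0.0327 points. The replicates were less close on single chromosomes. On chromosome 5 the 4 pairs were higher by 0.747 to 1.82 points, and the pairs within a genotype differed by -0.732 and 0.311. On chromosome 4 these values were 1.01 to 2.17, and 0.304 and -0.258. On chromosome 8 they were 1.32 to 1.49, and 0.0971 and -0.196. With the mean of 2 libraries per genotype, the median difference of the 3 chromosomes together was 0.366 points against -0.842. It was 0.771 on chromosome 4, 0.0599 on chromosome 5 and 0.351 on chromosome 8. This was not particular to the 3 chromosomes, since chromosome 14 had the highest median of the autosomes, 0.984, and chromosome 7 with 0.189 was above chromosome 5.

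Single regions varied far more than that. The middle 50% of the 5497 differences lay between -7.56 and 8.61 points. Both KO1 percentiles were above both parental ones in 1236 regions (22.5%, against 18.9% on the other autosomes) and below both in 1055 (19.2%, against 23.1%). The shares with KO1 above were nearly the same on the 3 chromosomes, 22.6%, 22.6% and 22.2% on chromosomes 4, 5 and 8.

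Among the arms, the short arm of chromosome 4 ranked highest by this difference. Its 524 regions in all 4 lists had a median difference of 2.99 points, and the 4 library pairs gave 5.09, 1.46, 5.38 and 0.902, all above 0 and each 3.46 to 4.41 points above the other autosomes. Both KO1 percentiles were above both parental ones in 30.3% of its regions and below both in 15.5%. The KO1-only share of 4p, 8.07%, was no higher than that of 4q, where the median difference was -0.230. On 5p and 8q, the arms with the highest KO1-only shares, the median differences were 0.375 and 0.760, and on 5q and 8p they were -0.0167 and -0.515. The 4 pairs on 5p were 0.482 to 3.05 points above the other autosomes. There, the 2 pairs within a genotype differed from the other autosomes by -1.34 and 1.12 points. After 4p, the highest median differences were on arms that were not chosen, 1.19 on 18p and 1.17 on 7p.

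By bin, all 4 library pairs exceeded the other autosomes' median in 25 of the 50 bins of chromosomes 4, 5 and 8 (50%) and fell below it in 5 (10.0%), while in the other autosomes each happened in 63 of 224 bins (28.1%). The 20 to 30 Mb bin of chromosome 4 had the highest median difference of all 274 bins, 9.01 points over 102 regions, and its pairs gave 14.7, 4.63, 14.98 and 5.54. With bins shifted by 5 Mb, the highest median of a bin on the 3 chromosomes was 5.93. Next to it, the bins from 10 to 20, 30 to 40 and 40 to 50 Mb had medians of 2.89, 2.67 and 4.69, and in each of these the 4 pairs were above 0, whereas the first bin of the arm had -1.98. On chromosome 8 the bin from 70 to 80 Mb had 5.66 points and that from 50 to 60 Mb had 3.84, and on chromosome 5 the bin from 60 to 70 Mb had 4.86. These 3 bins also had the highest KO1-only shares of the bins compared on the 3 chromosomes. In them, both pairs with parental replicate 1 were well above 0, at 5.45 to 9.08 points. The pairs of KO1 replicate 2 with parental replicate 2 were slightly below 0, at -0.278 to -0.502, still above the -2.56 of the other autosomes. The lowest median on the 3 chromosomes, -3.61, was in the last bin of chromosome 8. Bin medians on the other autosomes ran from -10.4 to 8.33, the latter in the bin of chromosome 3 that starts at 80 Mb.

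How well the replicates agreed on this pattern differed among the chromosomes. Over the bins, the medians of KO1 minus parental from replicates 1 and from replicates 2, which have no library in common, had a Pearson's r of 0.809 on chromosome 4 (18 bins), 0.433 on chromosome 8 (15 bins) and -0.263 on chromosome 5 (17 bins), as compared with 0.718 over the 224 bins of the other autosomes. Neighbouring bins share chromosomes and libraries, and these values are descriptions. On chromosome 5 the bin pattern was thus not shared by the same-numbered pairs (Spearman's rho -0.0245), and libraries paired across replicate numbers were not compared in this way. All 4 pairs exceeded the other autosomes' median in 9 of the 17 bins of chromosome 5 and fell below it in 0. The KO1-only share and the median difference of a bin had a Pearson's r of 0.447 over the 50 bins.

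**Figure D5:**
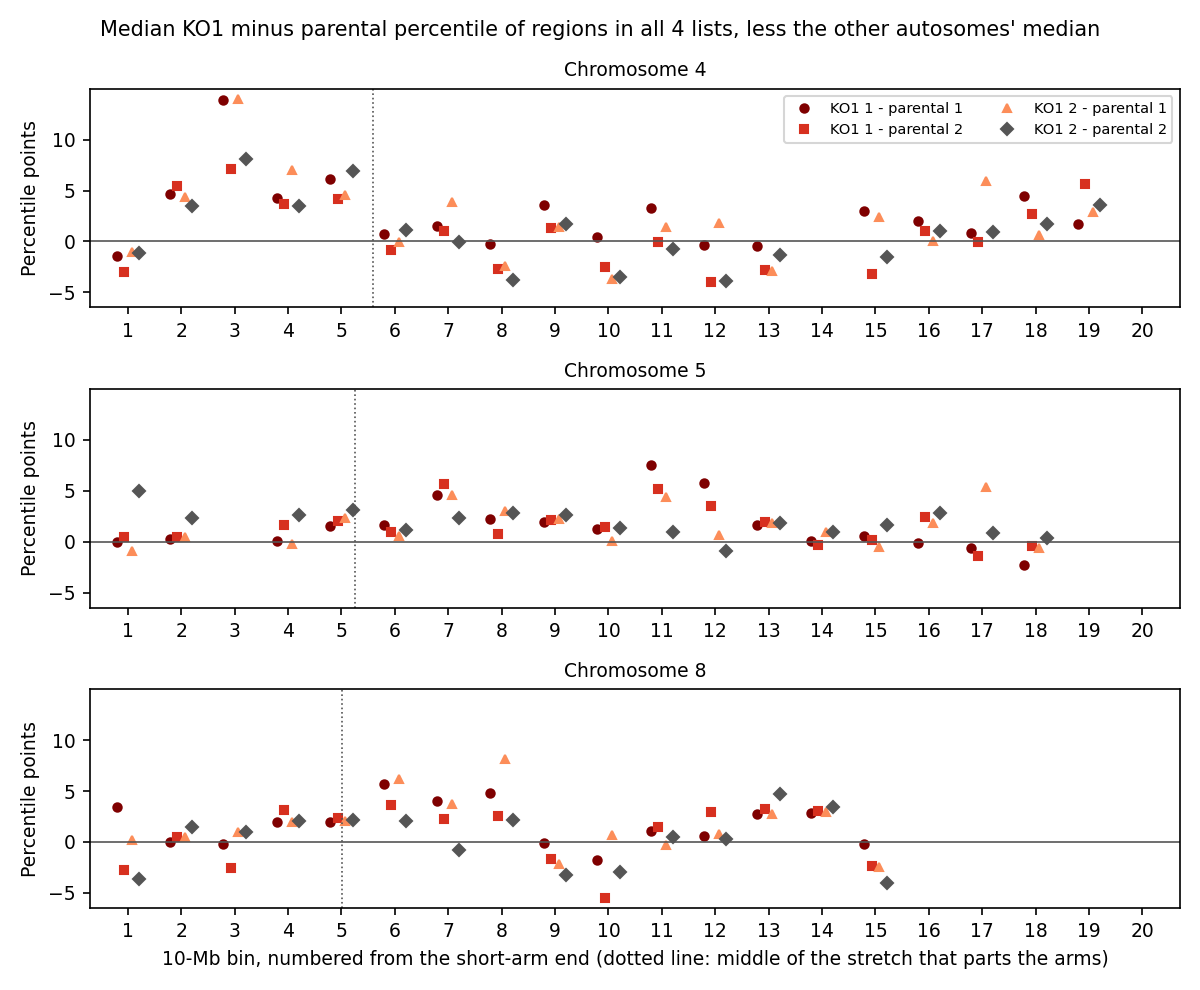
Median KO1 minus parental percentile of the regions in all 4 lists in each 10-Mb bin, less the same median over the other autosomes (y axis, percentile points; x axis, bins numbered from the short-arm end), with 1 symbol for each of the 4 pairs of a KO1 and a parental library; bins with fewer than 30 such regions are left out. All 4 pairs lie above 0 in bins 2 to 5 of chromosome 4, and the pairs scatter around or slightly above 0 along most of chromosome 5.

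The shared regions with the largest differences are given with their neighbours. They were picked as extremes, and how often the neighbours of other regions share a direction was not counted. For scale, the median difference of all regions in all 4 lists on the 3 chromosomes was 0.366 points. On chromosome 5, the region from 61265336 to 61265421 had percentiles of 6.29 and 23.6 in parental and 96.2 and 89.5 in KO1 libraries, a difference of 77.9 points, the highest on the 3 chromosomes among regions whose genotypes did not overlap. A run of 3 KO1-only regions from 61136032 to 61263031 ended beside it, and the 2 other regions in all 4 lists within 100 kb had differences of 27.9 and 41.3 points. On chromosome 8, the region from 127559616 to 127559663 had 30.4 and 25.8 in parental and 87.8 and 93.9 in KO1 libraries, and the 5 other regions in all 4 lists within 100 kb were all higher in KO1 cells, with a median of 19.3 points. On chromosome 4, the region from 8092200 to 8092393 had 13.6 and 13.4 in parental and 63.1 and 73.7 in KO1 libraries, and the 4 other such regions were all higher, with a median of 5.87 points. The genotypes did not overlap at any of these 3 regions, as the way they were picked required.

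The opposite was seen at other regions of the same chromosomes. On chromosome 4, the region from 5383988 to 5384099 had percentiles of 97.8 and 94.6 in parental and 25.6 and 21.1 in KO1 libraries, and the 2 other regions in all 4 lists within 100 kb had differences of -61.9 and -52.6 points. It lay in the first bin of 4p. On chromosome 5, the region from 178157660 to 178157715 had 70.2 and 72.8 in parental and 2.54 and 28.1 in KO1 libraries, and of the 3 other such regions 2 were lower in KO1 cells. On chromosome 8, the region from 122682123 to 122682192 had 48.3 and 68.5 in parental and 2.37 and 3.61 in KO1 libraries, and 5 of the 8 other such regions within 100 kb were lower in KO1 cells. The strongest parental-only region of chromosome 8, from 49532730 to 49532805, had 89.6 and 75.7 in the parental libraries and lay 8507 bp from a KO1 summit.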

How the data were processed

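The authors performed LSD1 CUT&RUN in MDA-MB-231 cells, with 2 parental and 2 RCOR2-KO1 libraries. The study's methods state that CUT&RUN was repeated 2 times. The labels do not say that the libraries came from separate cultures. Per the labels' processing notes, FastQC 0.11.2, Bowtie2 2.3.3.1, Picard and MACS2 2.1.0 were used with hg19 (GRCh37), and peaks were called per library. The authors deposited 1 summit per peak with its −log10 p or q value; widths, fold enrichment and read depth were not used here.

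Software was scipy 1.17.1, numpy 2.4.6 and pandas 2.3.3 under Python 3.11.15, with matplotlib 3.10.9 for plots. Summits at most 500 bp apart were joined, 1 summit on Y was left out, and the strongest summit of a region in a library gave its percentile there. The −log10 values depend on depth and were used only as ranks within a list. Bins were 10 Mb, and bins shifted by 5 Mb were an alternative. The named regions were, for each chromosome, the 3 KO1-only regions and the 1 parental-only region whose lower percentile was highest, and the shared regions with the highest and lowest difference among those whose genotypes did not overlap. Isolated regions, stretches, runs and region density were added after seeing the data. Members and lists were chosen with earlier results of these data known. The steps were tested on simulated lists. Same-numbered libraries did not deviate together (correlations of 0.00722 over all regions in all 4 lists and 0.0330 over those on the 3 chromosomes), so replicate numbers were not used as pairs. No gene annotation or genome of this build was used here, and regions are therefore given by position.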

Additional observations from a re-analysis of the deposited data

How the results depend on the processing

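The KO1-only share, the parental-only share and the median difference kept their direction against the other autosomes under the alternatives run. These alternatives use the lists by which the chromosomes were chosen, so they describe dependence on the settings only. Arms, strength classes, library pairs, runs, stretches and bins by region number had no alternative. The KO1-only share stayed above that of the other autosomes in all 11 alternatives (ratio 1.2 to 1.65, main 1.38), the parental-only share below it in all 11 (0.768 to 0.886, main 0.814), and the median percentile difference above it in all 12 (1.10 to 1.51 points, main 1.21). The values themselves depended on the settings. Joining at 250 bp gave a KO1-only share of 10.8% and a parental-only share of 7.998%, and joining at 1000 bp a parental-only share of 5.67%. The upper 50% of each list gave 283 KO1-only regions, 10.2% (other autosomes 7.58%) and 7.14%. Shifting the bins by 5 Mb lowered the highest median difference of a bin from 9.01 to 5.93 points. With all regions of both KO1 lists as denominator, the KO1-only share was 7.36%. Counting only regions with no summit of the other genotype within 2 kb, an alternative chosen after seeing the data, gave 7.04% and 5.27%, and within 10 kb 262 regions, 4.55% (ratio 1.65) and 3.12%. Ranking within the regions of all 4 lists gave a difference over the other autosomes of 1.41 points. With each library left out in turn, fewer lists decided which regions counted as KO1-only, and their number was 724 and 1027 without parental replicates 1 and 2 and 1129 and 1072 without KO1 replicates 1 and 2. The share ranged from 10.8% to 16.4% (ratio 1.2 to 1.28), the parental-only share from 10.4% to 16.9% (ratio 0.844 to 0.886), the median difference from -1.29 without parental replicate 1 to 2.20 without parental replicate 2, and its excess over the other autosomes from 1.10 to 1.51 points; a lone library then stands for its genotype. With the replicate number as a block the difference was 0.366 points, identical by construction. The number of summits limits all shares, and read depth is unknown.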
